A study of Mus musculus with 2 samples.

Results

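Metalloproteases of the MMP, ADAM and ADAMTS families and their inhibitors, the TIMPs, were examined in mouse macrophages grown from bone marrow. Members were all measured genes whose symbol is Mmp, Adam or Adamts followed by a digit, together with Timp1 to Timp4, which gave 75 of the 19505 genes measured: 21 MMP, 32 ADAM, 18 ADAMTS and 4 TIMP genes. Each was read by 1 probe set. The comparison is between cells labelled LysM (+);MC4RTB/TB, shortened to LysM(+), and cells labelled MC4RTB/TB, shortened to TB/TB, with 1 array per group. Both groups are homozygous for the TB allele of MC4R, the melanocortin 4 receptor, and differ by LysM. As background, TB alleles of Mc4r are known to be silenced by a transcription block that Cre can excise, and the LysM (Lyz2) promoter is a usual driver of Cre in macrophages and neutrophils; the labels spell out neither. Per the labels' protocols, marrow cells were turned into macrophages with M-CSF (day 0 and day 3, each time at 25 ng/mL) and were used from day 5. The sources used here give no age, no sex and no number of animals behind a culture.

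MMPs are zinc-dependent enzymes that cut collagen, elastin and other matrix proteins, and most are secreted as inactive proenzymes. ADAMs are membrane proteins, and those with protease activity act as sheddases that release the outer parts of cytokines and receptors, as Adam17 does for TNF. ADAMTS enzymes are secreted and bind matrix, where several cut proteoglycans or process procollagen, and TIMPs block the active sites of all these families to different degrees. Macrophages are a known source of matrix-degrading enzymes in the artery wall, the tissue named in the study's title.

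The arrays had no replicates, so no test was run, and each difference, taken as LysM(+) minus TB/TB in log2 units, describes these arrays only. A gene was taken as expressed above background when its brighter value reached a log2 value of 6.12, the median of all named probe sets, called the floor. A stricter limit was set by 23 background control probe sets, which spanned 3.09 to 6.81; no control differed by more than 0.09 from array to array. Values of different genes come from different probes and are not set against each other, except in sums of linear signal over a marker list. The cells carried macrophage markers: all 10 measured markers lay above every background control on both arrays. They ran from 12.41 (Mertk) to 18.86 (Lyz2) in LysM(+) and from 12.82 (Msr1) to 19.04 (Lyz2) in TB/TB. Mc4r read 4.45 in LysM(+) and 4.57 in TB/TB, within the control range, so it gives no check of the labels. In these bulk samples, fewer cells of a type and less RNA per cell cannot be told apart.

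Most of the family was at background in these macrophages. Of the 75 members, 23 (30.7%) reached the floor on at least 1 array, against 52% of all genes, and 15 lay above every background control on both arrays. Those 15 were Mmp8, Mmp12, Mmp14 and Mmp19, Adam4, Adam8, Adam9, Adam10, Adam17 and Adam22, Adamts7 and Adamts10, and Timp1, Timp2 and Timp3. A further 8 members, Mmp2, Mmp9, Mmp13, Adam1b, Adam12, Adam15, Adam19 and Adamts12, reached the floor but lay within the control range on at least 1 array. The share above background differed among classes, as the bar chart of classes shows. Among the somatic ADAMs with protease activity 7 of 9 reached the floor, against 2 of 20 ADAMs of testis and epididymis and 3 of 18 ADAMTS genes.

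**Figure D1:**
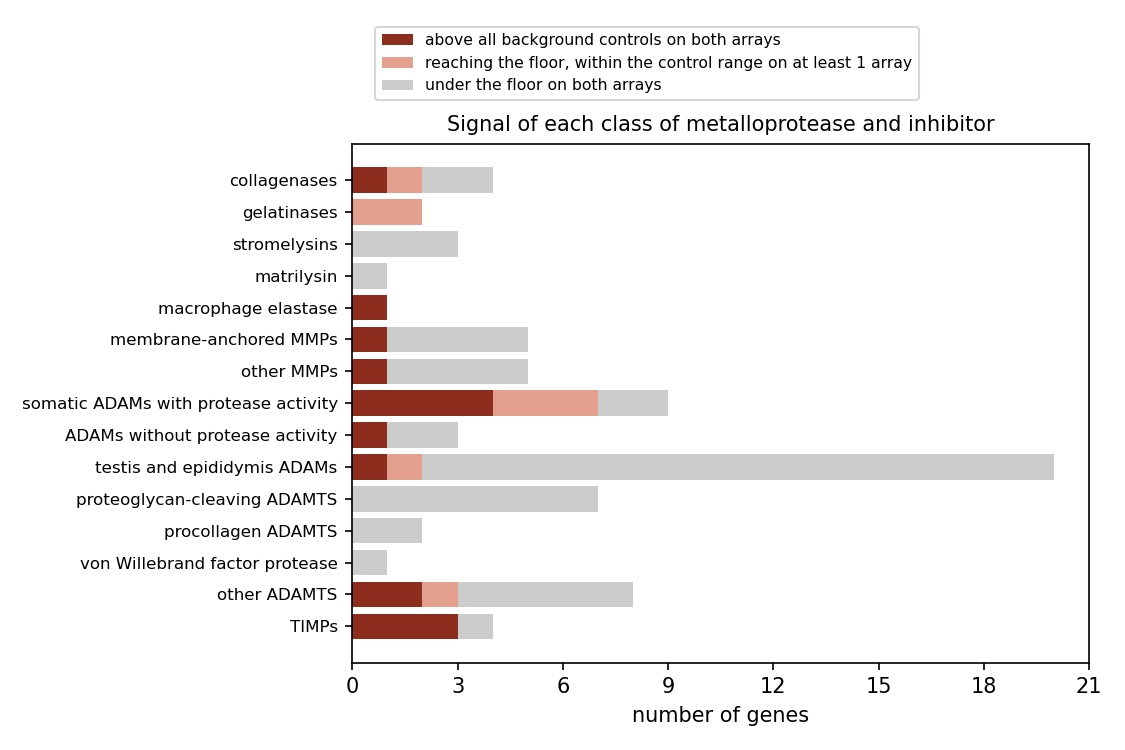
Number of genes (x axis) in each class of metalloprotease and inhibitor, divided into those above all background controls on both arrays, those reaching the floor of 6.12 but within the control range on at least 1 array, and those under the floor on both arrays. Of the 9 somatic ADAMs with protease activity 7 reach the floor, and 4 lie above all controls on both arrays. Of the 4 TIMPs 3 lie above all controls on both arrays. All 7 proteoglycan-cleaving ADAMTS genes are under the floor.

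MMP genes that lie side by side differed in whether they were above background. Mouse chromosome 9 carries a run of MMP genes with no other protein-coding gene between them in the RefSeq annotation, of which 9 were measured: in order, Mmp13, Mmp12, Mmp1b, Mmp3, Mmp1a, Mmp10, Mmp8, Mmp20 and Mmp7. Within that run Mmp12 and Mmp8 alone lay above every background control on both arrays, Mmp13 reached the floor within the control range, and the other 6 were under the floor on both arrays. The promoters of this run are shown because many MMP promoters are known to carry a site for AP-1, the dimer of Fos and Jun proteins, close upstream of a TATA box, so that the bright and dim neighbours can be compared letter by letter. Each line is the stretch of 120 bases before a RefSeq transcription start in GRCm38.p6, 5′ to 3′ on the gene's strand, in lower case, with the AP-1 motif TGANTCA (searched on both strands) and the TATA-box letters TATAAA (likewise) in capitals. The windows are, in the order printed, chr9:7347254-7347373 (+) and chr9:7344277-7344396 (+) for the starts RefSeq gives for Mmp12, chr9:7558309-7558428 (+) for Mmp8, chr9:7272394-7272513 (+) for Mmp13, chr9:7445702-7445821 (+) for Mmp3, chr9:7464021-7464140 (+) for Mmp1a, chr9:7502222-7502341 (+) for Mmp10, chr9:7388027-7388146 (-) for Mmp1b, chr9:7628111-7628230 (+) for Mmp20, and chr9:7691970-7692089 (+) and chr9:7692221-7692340 (+) for the starts of Mmp7.
Mmp12, downstream start: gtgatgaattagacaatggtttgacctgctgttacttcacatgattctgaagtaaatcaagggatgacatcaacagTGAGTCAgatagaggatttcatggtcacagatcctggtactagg
Mmp12, upstream start: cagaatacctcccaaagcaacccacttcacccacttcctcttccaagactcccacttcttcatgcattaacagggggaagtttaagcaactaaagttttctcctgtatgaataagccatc
Mmp8: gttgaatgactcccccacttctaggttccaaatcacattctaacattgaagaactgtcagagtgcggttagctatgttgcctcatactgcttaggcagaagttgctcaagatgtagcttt
Mmp13: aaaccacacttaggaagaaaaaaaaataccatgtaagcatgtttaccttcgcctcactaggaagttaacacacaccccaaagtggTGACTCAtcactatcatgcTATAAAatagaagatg
Mmp3: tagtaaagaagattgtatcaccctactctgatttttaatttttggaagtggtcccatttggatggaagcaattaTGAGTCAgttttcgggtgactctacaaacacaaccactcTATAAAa
Mmp1a: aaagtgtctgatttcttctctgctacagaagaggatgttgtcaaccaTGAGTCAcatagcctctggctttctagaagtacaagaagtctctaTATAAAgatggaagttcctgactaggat
Mmp10: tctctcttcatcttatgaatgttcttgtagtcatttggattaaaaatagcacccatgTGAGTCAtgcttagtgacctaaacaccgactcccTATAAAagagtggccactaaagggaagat
Mmp1b: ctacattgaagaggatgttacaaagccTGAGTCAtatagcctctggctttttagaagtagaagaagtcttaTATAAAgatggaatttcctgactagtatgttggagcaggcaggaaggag
Mmp20: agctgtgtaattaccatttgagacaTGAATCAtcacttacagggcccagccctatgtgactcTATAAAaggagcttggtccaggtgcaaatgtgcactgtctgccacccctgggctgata
Mmp7, upstream start: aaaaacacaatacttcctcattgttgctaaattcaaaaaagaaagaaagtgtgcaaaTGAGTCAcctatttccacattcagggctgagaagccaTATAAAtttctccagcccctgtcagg
Mmp7, downstream start: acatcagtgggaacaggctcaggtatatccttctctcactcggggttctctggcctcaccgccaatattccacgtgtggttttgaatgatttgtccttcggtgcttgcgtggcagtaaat

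The AP-1 letters were found at the downstream start of Mmp12 and in dim neighbours. They were absent from the upstream start of Mmp12 and from Mmp8. The TATA letters were absent from both genes above the controls. As only 12.4% of all promoters held TATAAA, its absence from these genes is a description only. In the 250 bases before the start, 8 of the 9 measured genes of the run held TGANTCA in at least 1 listed promoter, all but Mmp8, and 7 also held TATAAA, all but Mmp12 and Mmp8. Both motifs were therefore present in Mmp13 and in all 6 genes under the floor, while Mmp12 had the AP-1 motif at its downstream start without the TATA letters and Mmp8 had neither. Among promoters of members outside this run, TATAAA was in 0 of 14 of members at the floor and in 5 of 25 of members under it, and TGANTCA in 1 of 14 and 3 of 25. Those TATAAA matches began 32 bases before the start in Adamts1, 70 in Mmp21, 104 in Adam6a, 205 in Adam6b and 219 in Adam29. The match in Adam6a was on the opposite strand. Any place in the 250 bases counted, so these matches need not be TATA boxes. Promoters of neighbouring copies are related by descent, so the motif counts are not independent. The AP-1 motif began 44 bases before the downstream start in Mmp12, 35 before the start in Mmp13, 46 in Mmp3, 73 in Mmp1a and 63 in Mmp10. It began 93 bases before the start in Mmp1b, 95 in Mmp20 and 63 before the upstream start in Mmp7. Of 7 MMP genes elsewhere in the genome with a listed promoter, 0 held TGANTCA. Over all 32851 promoters in the RefSeq table, 6.75% held TGANTCA and 12.4% held TATAAA in the same 250 bases, and over the 50 promoters listed for 45 of the members each motif was in 12. The promoter table was not complete for the family, and a match is a description of letters, not of binding.

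**Figure D2:**
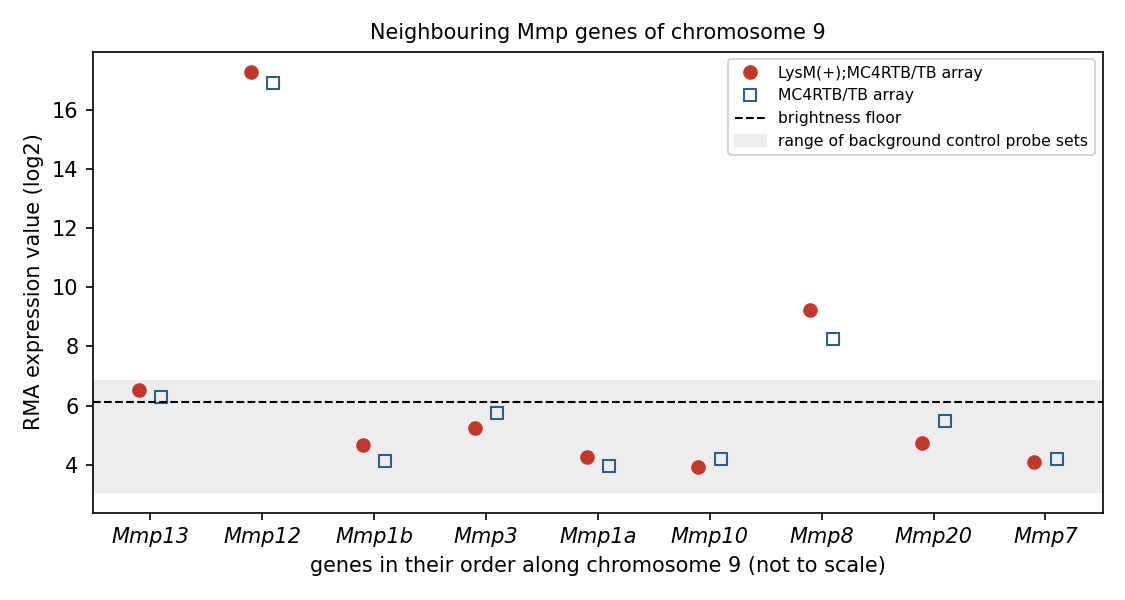
RMA expression value (log2, y axis) of the 9 measured neighbouring MMP genes, in their order along chromosome 9 (x axis, not to scale), with 1 point per array. Mmp12 lies between 16.92 and 17.27 and Mmp8 between 8.25 and 9.23, while 6 neighbours lie under the dashed floor of 6.12 on both arrays.

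Adam9 stood in a similar position. On chromosome 8 it follows Adam18, Adam3, Adam5 and Adam32, genes of sperm cells, in an unbroken run, and those 4 read between 3.50 and 5.74 in LysM(+) and between 3.50 and 5.43 in TB/TB. Adam9, a widely expressed sheddase, read 12.65 in LysM(+) and 12.49 in TB/TB. It was the sole gene of the run of 5 to reach the floor.

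Among the collagenases and gelatinases, Mmp8 and Mmp9 were higher in LysM(+). Mmp8, the collagenase stored in neutrophil granules, had log2 values of 9.23 in LysM(+) and 8.25 in TB/TB, a 1.98-fold difference (0.98 on the log2 scale) with both values above every control. Mmp9, a gelatinase that macrophages and neutrophils make, had 6.45 in LysM(+) and 5.30 in TB/TB, a 2.21-fold difference. Both Mmp9 values lay within the control range and the TB/TB value lay under the floor, so this fold is not exact. Mmp13, a collagenase, had 6.53 in LysM(+) and 6.29 in TB/TB, and Mmp2, the other gelatinase, 6.03 in LysM(+) and 6.50 in TB/TB, a difference of -0.48; all of these lay within the control range. The remaining collagenase genes, Mmp1a and Mmp1b, were under the floor on both arrays.

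The elastase and the membrane-anchored and other MMPs above background were also higher in LysM(+), but by less than 1.5-fold. Mmp12, the macrophage elastase, had 17.27 in LysM(+) and 16.92 in TB/TB, a difference of 0.35, or 1.27-fold. Mmp14, a membrane-anchored MMP that cuts collagen and activates pro-Mmp2, had 9.47 in LysM(+) and 9.002 in TB/TB, a difference of 0.47, or 1.38-fold. Mmp19, which cuts basement membrane proteins, had 11.15 in LysM(+) and 10.76 in TB/TB, a difference of 0.39, or 1.31-fold. In all, 6 of the 7 MMP genes at the floor were higher in LysM(+) by any amount, Mmp2 being the exception. Among all 10137 genes that reached the floor 57.1% were higher by any amount, so with 7 genes this count is a description only.

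The other 14 MMP genes were under the floor on both arrays, at 3.55 to 5.26 in LysM(+) and 3.47 to 5.73 in TB/TB. They were Mmp1a, Mmp1b, the stromelysins Mmp3, Mmp10 and Mmp11, matrilysin Mmp7, the membrane-anchored Mmp16, Mmp17, Mmp24 and Mmp25, and Mmp20, Mmp21, Mmp23 and Mmp28. Mmp20 is the enzyme of tooth enamel, and Mmp25 is known from leukocytes.

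**Figure D3:**
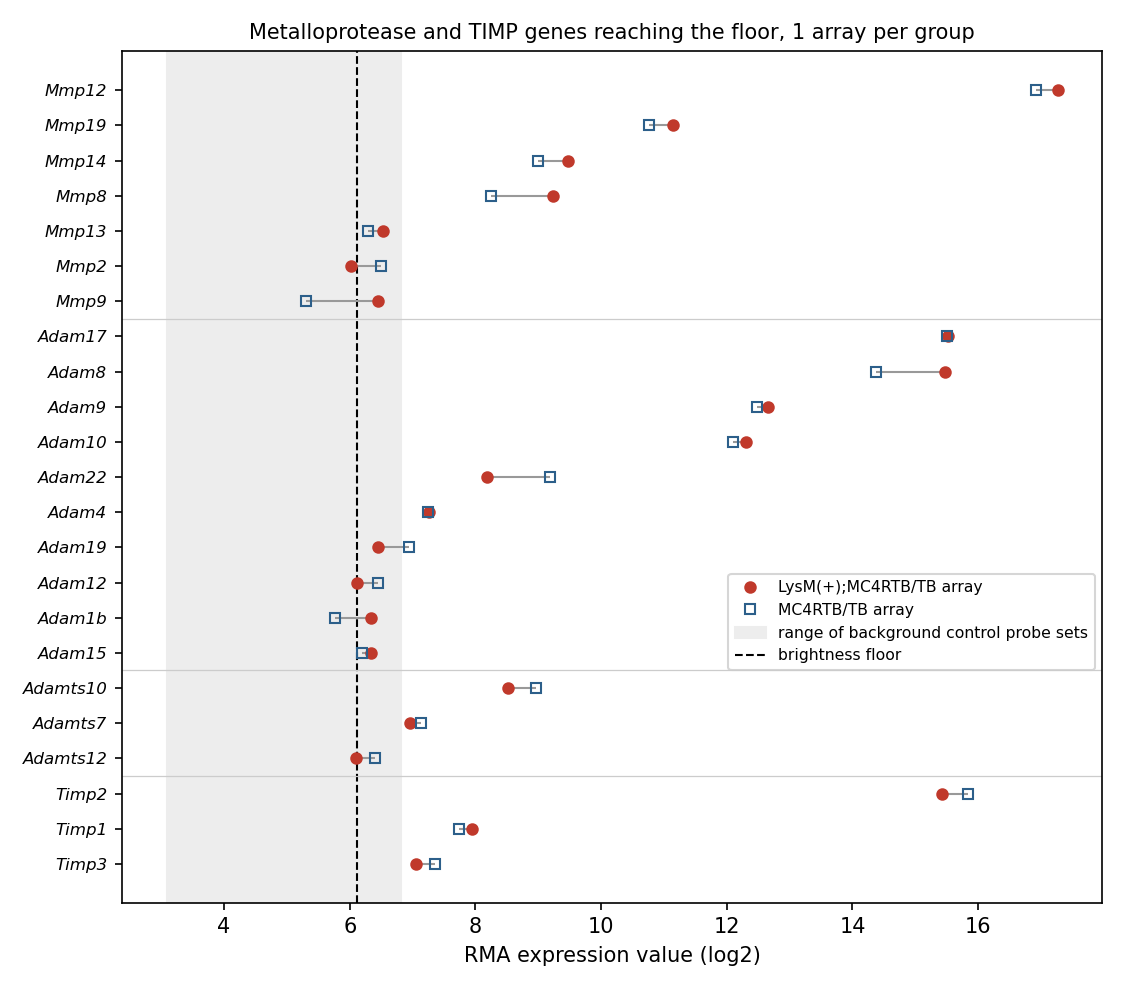
RMA expression value (log2, x axis) of the 23 members whose brighter value reached the floor, by family, with filled circles for the LysM(+);MC4RTB/TB array and open squares for the MC4RTB/TB array. Adam8 (15.48 against 14.37), Mmp8 (9.23 against 8.25) and Mmp9 (6.45 against 5.30) are higher on the LysM(+) array and Adam22 (8.19 against 9.18) is lower; the grey band spans the background controls.

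The main sheddases were present at nearly the same values on both arrays, and Adam8 was the ADAM gene with the largest difference. Adam8, a sheddase of myeloid cells, had 15.48 in LysM(+) and 14.37 in TB/TB, a 2.16-fold difference (1.11 on the log2 scale). Of all genes reaching the floor, 2.63% were higher in LysM(+) by at least as much as Adam8. Adam10, which cuts Notch receptors and many adhesion proteins, had 12.31 in LysM(+) and 12.09 in TB/TB, a difference of 0.22. Adam17, the enzyme that releases TNF, had 15.51 in LysM(+) and 15.50 in TB/TB; the difference of 0.01 was under the largest difference among the controls, and turned to -0.10 after quantile normalization. Adam9 differed by 0.16.

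The somatic ADAMs near background gave no exact folds. Adam15, which is found in endothelial and other cells, had 6.34 in LysM(+) and 6.19 in TB/TB. Adam19, a sheddase of neuregulin, had 6.45 in LysM(+) and 6.94 in TB/TB, a difference of -0.49. Adam12, known from muscle and mesenchymal cells, had 6.11 in LysM(+) and 6.44 in TB/TB. Adam19 and Adam12 were lower in LysM(+), but each lay within the control range on at least 1 array. Adam28 and Adam33 were under the floor on both arrays.

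Adam22 was the sole member at the floor to be at least 1.5-fold lower in LysM(+). It lacks protease activity and is best known as a receptor for the secreted protein Lgi1 in brain. Its values were 8.19 in LysM(+) and 9.18 in TB/TB, a 1.99-fold difference (-0.99 on the log2 scale), with both values above every control. Of all genes reaching the floor, 0.888% were lower in LysM(+) by at least as much. Adam11 and Adam23, the other genes grouped here as ADAMs without protease activity, were under the floor on both arrays. ADAMs of testis and epididymis were grouped apart, whether or not they have that activity.

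Of the 20 ADAM genes of testis and epididymis, many of which act in sperm, 18 were under the floor on both arrays. Adam4 was an exception, with 7.26 in LysM(+) and 7.25 in TB/TB, both above every control and differing by 0.01. Adam1b had 6.34 in LysM(+) and 5.76 in TB/TB, a difference of 0.58 that fell just short of 1.5-fold before the arrays were centred or normalized again and passed it afterwards. Both Adam1b values lay within the control range. Several of these genes have close copies, Adam26a with Adam26b and Adam6a with Adam6b among them, and probes may read both, so their values are uncertain.

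ADAMTS genes had the smallest share at the floor of the families (3 of 18), and 0 of those 3 passed 1.5-fold in either direction. Over all genes at the floor 10.9% passed it upwards and 5.16% downwards, so a count of 0 among 3 genes says little. Adamts10, which binds fibrillin microfibrils, had 8.52 in LysM(+) and 8.97 in TB/TB, a difference of -0.45. Adamts7, which has been linked to coronary artery disease in humans, had 6.96 in LysM(+) and 7.13 in TB/TB, a difference of -0.16. Adamts12 had 6.10 in LysM(+) and 6.40 in TB/TB, within the control range. These 3 genes, the only ADAMTS genes at the floor, all read lower in LysM(+). Among all 10137 genes at the floor 4347 were lower by any amount, so with 3 genes this count is a description only. All 7 proteoglycan-cleaving genes (Adamts1, Adamts4, Adamts5, Adamts8, Adamts9, Adamts15 and Adamts20), the procollagen-processing Adamts3 and Adamts14, and Adamts13, which cuts von Willebrand factor, were under the floor on both arrays, as were Adamts6, Adamts16, Adamts17, Adamts18 and Adamts19. Over the 15 dim ADAMTS genes values ran from 3.59 to 5.78 in LysM(+) and from 3.72 to 5.88 in TB/TB.

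The inhibitors were present with the proteases, with 3 of 4 at the floor. None of those 3 passed 1.5-fold, against 10.9% of all genes at the floor upwards and 5.16% downwards, so this count says little. Timp2, which both inhibits MMPs and helps Mmp14 activate pro-Mmp2, had 15.43 in LysM(+) and 15.84 in TB/TB, a difference of -0.41, or 1.33-fold lower. Timp1, a secreted inhibitor that binds pro-Mmp9, had 7.94 in LysM(+) and 7.74 in TB/TB, a difference of 0.20. Timp3, which stays bound to matrix and inhibits Adam17, had 7.05 in LysM(+) and 7.36 in TB/TB, a difference of -0.31. Timp1 was thus higher and Timp2 and Timp3 were lower in LysM(+). Timp4 was under the floor on both arrays, at 4.43 in LysM(+) and 4.30 in TB/TB.

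Read against all genes, the share of members past 1.5-fold was close to the background, and the counts are too small to say more. Of the 23 members at the floor 3 (Adam8, Mmp8 and Mmp9) were at least 1.5-fold higher in LysM(+), which is 13.0%, against 10.9% of all 10137 genes at the floor. The sole member at least 1.5-fold lower was 4.35% of the 23, against 5.16% of all genes. Over the stricter set of 15 members above every control on both arrays, 2 (13.3%) were higher and 1 (6.67%) was lower by that fold, against 10% and 3.52% of all such genes. The median difference of the 23 was 0.14, against 0.07 over all genes at the floor, and the median absolute difference was 0.35, against 0.26. At 2-fold, 2 members (8.70%) were higher and 0 were lower, against 3.25% and 0.858% of all genes at the floor; these were Adam8 and Mmp9, and Mmp9 reached the floor on the LysM(+) array alone, with both values within the control range.

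Members at background level had smaller differences and a negative median, as did dim genes over the whole array. Over the 52 dim members the median difference was -0.09, against -0.07 over all 9368 dim genes, and the median absolute difference was 0.21, against 0.20. Of the 52, 20 (38.5%) were higher in LysM(+) and 32 lower by any amount, against 40.8% higher over all dim genes. Adam26b was at least 1.5-fold higher, and Adam20, Adam30, Mmp11 and Mmp20 were at least 1.5-fold lower, which is 1.92% and 7.69% of the 52, against 2.72% and 5.89% of all dim genes. These folds rest on signal at background on both arrays.

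**Figure D4:**
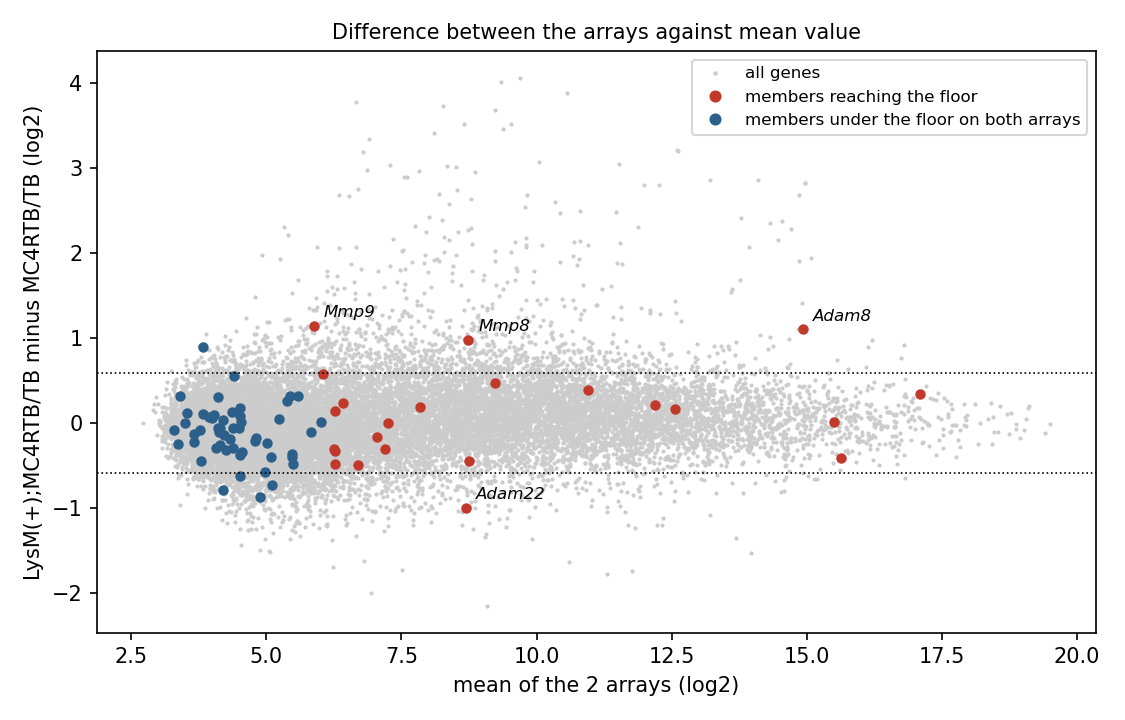
Difference between the arrays (LysM(+);MC4RTB/TB minus MC4RTB/TB, log2, y axis) against the mean of the arrays (log2, x axis) for all 19505 genes in grey, the 23 members reaching the floor in red and the 52 members under it in blue. Dotted lines mark 1.5-fold, and the named members are the 4 past it at the floor.

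Among genes that carry ADAM sheddases to the cell surface, or activate them, 1 gene near background passed 1.5-fold. Of 13 such genes 8 reached the floor. Among these, 1 (12.5%, against 10.9% of all genes at the floor) passed 1.5-fold upwards in LysM(+) and 0 downwards, so this count says little. The median of those 8 differences was -0.19, against 0.07 over all genes at the floor. Rhbdf2 (iRhom2), the partner that brings Adam17 to the surface of immune cells, had 10.30 in LysM(+) and 10.19 in TB/TB. Tspan33, a tetraspanin that partners Adam10, was the member past 1.5-fold, at 6.55 in LysM(+) and 5.85 in TB/TB, values within the control range, of which the TB/TB value lay under the floor. Tspan14, another partner of Adam10, had 12.67 in LysM(+) and 12.97 in TB/TB, and Furin, which removes the prodomain of many of these enzymes, 9.90 in LysM(+) and 10.10 in TB/TB.

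Among known substrates of sheddases, 18 of 25 measured reached the floor, 2 (11.1%, against 10.9% of all genes at the floor) passed 1.5-fold upwards in LysM(+) and 0 downwards, and their median was 0.06. Tnf, the cytokine that Adam17 releases, had 11.47 in LysM(+) and 10.19 in TB/TB, a 2.43-fold difference. Jag1, a Notch ligand, had 8.97 in LysM(+) and 8.19 in TB/TB, a 1.72-fold difference. The shed receptor genes Tnfrsf1a, Tnfrsf1b, Csf1r and Il6ra were all above the controls and differed by 0.20, -0.45, -0.20 and -0.32. These are RNA values, and shedding itself was not measured.

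Matrix proteins that the family cuts included some with lower values in LysM(+). Of 19 measured, 12 reached the floor, 0 passed 1.5-fold upwards in LysM(+), against 10.9% of all genes at the floor, and 2 (16.7%) downwards, against 5.16%, with a median of -0.23. Col1a2, a chain of type I collagen, had 8.54 in LysM(+) and 9.14 in TB/TB, and Vwf, the substrate of Adamts13, 7.27 in LysM(+) and 8.18 in TB/TB. Of 25 other extracellular proteases and inhibitors 10 reached the floor, with 1 (10.0%) past 1.5-fold in each direction, against 10.9% of all genes upwards and 5.16% downwards. These were Plau, the urokinase that generates plasmin, at 11.87 in LysM(+) and 9.72 in TB/TB, and Adamtsl5, an ADAMTS-like protein without a protease domain, at 6.82 in LysM(+) and 7.56 in TB/TB.

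Among known regulators of MMP genes, those past 1.5-fold were Fos and Ets2, a share close to the background. Of 15 measured 14 reached the floor, 2 (14.3%) passed 1.5-fold upwards in LysM(+), against 10.9% of all genes at the floor, and 0 downwards, with a median of 0.10. Fos had 12.00 in LysM(+) and 9.90 in TB/TB, a 4.29-fold difference, and Ets2, an ETS-family factor, 8.32 in LysM(+) and 6.76 in TB/TB, a 2.96-fold difference that is not exact, since the TB/TB value lay within the control range. The partners of Fos in AP-1, Jun, Junb and Jund, differed by 0.08, 0.10 and -0.29.

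Markers of neutrophils and of dividing cells included genes that were higher on the same array as Adam8, Mmp8 and Mmp9. Of 14 measured neutrophil genes, a list without Mmp8 and Mmp9, 10 reached the floor. Among these, 4 (Elane, Ltf, Retnlg and Cxcr2), or 40%, passed 1.5-fold upwards in LysM(+), against 10.9% of all genes at the floor. Downwards 0 passed, against 5.16%, and the median of those 10 differences was 0.47. Elane and Retnlg in TB/TB, and Cxcr2 on both arrays, lay within the control range, and Csf3r and Mpo went the other way, by -0.57 and -0.30. Over all 14 the values ran from 4.05 to 16.32 in LysM(+) and from 3.99 to 15.92 in TB/TB. Their summed linear signal was 1.28 times as high in LysM(+), a sum that rests largely on Ngp and Lcn2, which differed by 0.40 and 0.43. Such sums, here and for the lists below, rest on the brightest probe sets and do not measure the share of a cell type. Prtn3, Camp, Cebpe and Fcnb were under the floor on both arrays. The part of neutrophils in the Mmp8, Mmp9 and Adam8 differences was not tested. All 14 measured cell cycle genes (100%, against 10.9% of all genes at the floor) passed 1.5-fold upwards in LysM(+), by a median log2 difference of 2.89. They ran from 8.35 to 16.59 in LysM(+) and from 5.22 to 15.69 in TB/TB. In TB/TB, Cdk1 and Bub1 lay under the floor and Top2a and Ccna2 within the control range, so their folds are not exact. The summed signal of all 14 was 2.27 times as high in LysM(+). That sum rests largely on the brightest of them, Pcna, which differed by 1.86-fold. The part of cell division in any member's difference was not tested.

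Stromal cells, endothelium and mast cells are other known sources of these enzymes. Of 11 measured fibroblast and stromal genes 6 reached the floor. In LysM(+) 0 of them passed 1.5-fold upwards, against 10.9% of all genes at the floor. Downwards 2 (Col1a2 and Postn), or 33.3%, passed it, against 5.16%. The medians were -0.16 over those 6 and 0.06 over all 11. Their summed signal in LysM(+) was 0.857 times that in TB/TB. Col3a1, Lum, Thy1, Fbln1 and Lepr were under the floor on both arrays. All 11 ran from 4.31 to 8.54 in LysM(+) and from 4.24 to 9.14 in TB/TB. Endothelial genes reached the floor in 3 of 8 cases, with Cdh5, Tek, Emcn, Tie1 and Cldn5 under it. The 3 at the floor, Pecam1, Kdr and Vwf, differed by -0.08, -0.19 and -0.91. Vwf alone passed 1.5-fold downwards (33.3% of the 3, against 5.16% of all genes at the floor), and 0 passed upwards, against 10.9%. The summed endothelial signal in LysM(+) was 0.728 times that in TB/TB, a gap that rests largely on Vwf. The range of the 8 was 3.68 to 7.27 in LysM(+) and 3.68 to 8.18 in TB/TB. The floor was reached by mast cell and basophil genes in 0 of 8 cases. Of 9 osteoclast genes 6 reached the floor, with Calcr, Ocstamp and Oscar under it on both arrays. Among the 6, Dcstamp alone (16.7%, against 5.16% of all genes at the floor) was at least 1.5-fold lower in LysM(+). Upwards 0 passed, against 10.9%. The part of these cells in the members' values was not tested.

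**Figure D5:**
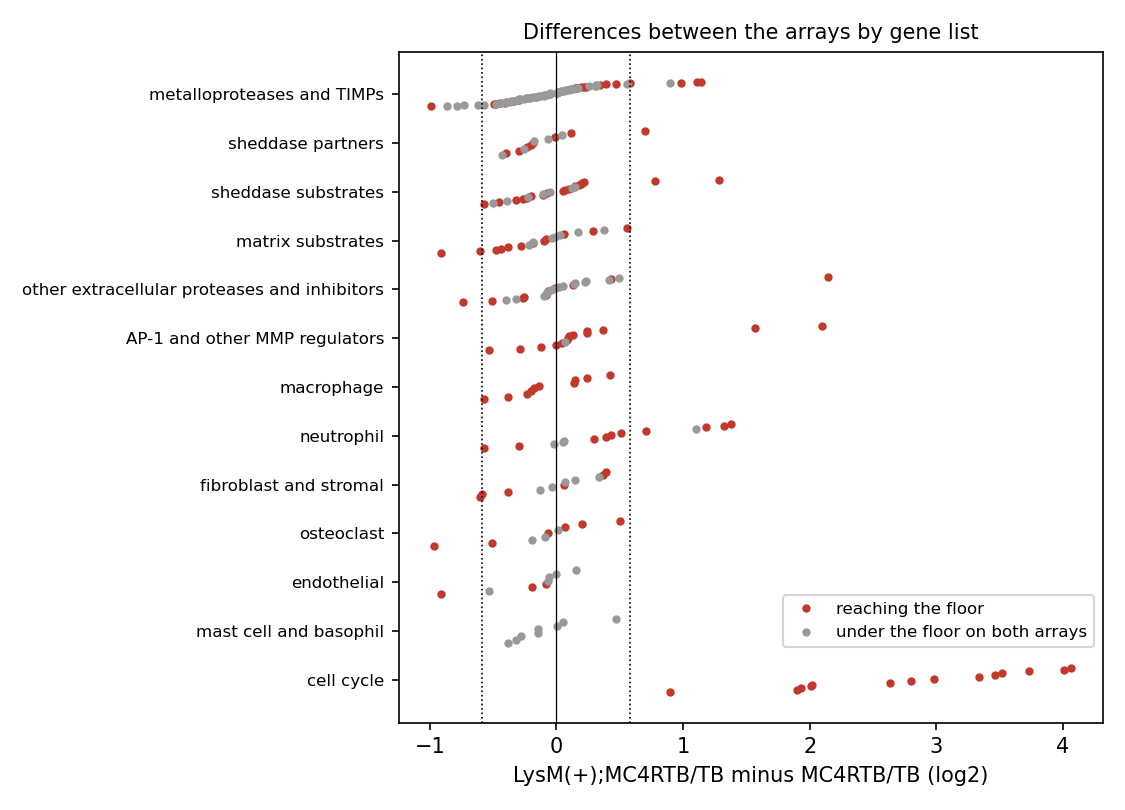
Difference between the arrays (LysM(+);MC4RTB/TB minus MC4RTB/TB, log2, x axis) for each gene of the family and of the lists set beside it (y axis, spread vertically by rank only), in red where the brighter value reached the floor and grey where it did not. All 14 cell cycle genes lie right of the 1.5-fold line, whereas 3 red points of the metalloproteases and TIMPs do.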

How the data were processed

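RNA from cultured bone marrow macrophages was measured on 2 arrays, 1 per group, with the groups taken from the genotype label. The authors deposited log2 expression values per probe set which, per the submitters' processing notes, came from RMA in Affymetrix Expression Console. RMA gives log base 2, and this was assumed. Values reached 19.5, a high upper end for that method, so the authors may have transformed them further, and every fold depends on this reading. Probe sets with 1 gene symbol (19572 of 28846) took their symbols from the GRCm38.p6 RefSeq table through Entrez IDs, and probe sets of the same gene were averaged. Genes were counted as differing at 1.5-fold or more if they reached the floor of 6.12 on at least 1 array. Every member at the floor was named; no test was possible with 1 array per group, and precision is limited by that number. The members and lists were chosen with earlier results of these data known. Motifs were searched in RefSeq promoters of GRCm38.p6; protein sequences were not used here, so the planned search for the zinc-binding motif was not run, and protease activity was taken from background knowledge. The counting was tested on simulated data. Alternatives were quantile normalization, median centring, loess (span 0.4), the brightest probe set, other floors and a 2-fold threshold. Python 3.11.15, numpy 2.4.6, pandas 2.3.3, statsmodels 0.14.6 and matplotlib 3.10.9 were used.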

Additional observations from a re-analysis of the deposited data

How the results depend on the processing

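The count of members at least 1.5-fold higher ran from 2 to 4 over all alternatives, against 3 as reported: Adam1b joined after quantile normalization, median centring or loess and Adam26b with no floor, Mmp9 dropped out where both arrays had to reach the floor or the floor was raised, and Mmp8 dropped out at 2-fold. Adam8 was counted as higher under all 9 alternatives. The count of members at least 1.5-fold lower was 5 with no floor, and 0 at 2-fold or with the floor at the 75th percentile of named probe sets, a log2 value of 9.23, against 1 as reported. With that floor 9 members remained, against 23, and their median difference was 0.35, against 0.14; fewer genes pass it by construction. Among sheddase substrates, 1 gene passed 1.5-fold downwards after quantile normalization, against 0 as reported. For the 23 named members, quantile normalization moved differences by -0.11 to 0.07 and loess by -0.10 to 0.07, and no called member changed direction. The brightest probe set changed no member, since each has 1 probe set. No paired analysis was possible because each group has 1 array. Signal over background limits the folds of the 8 members within the control range.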
